A study of Mus musculus with 5 samples.

Results

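Serine and cysteine protease inhibitors of 3 structural families were followed through the 5 libraries of a mouse prostate series. The members were taken by symbol alone: every gene whose symbol starts with Spink, or with Wfdc or Cst followed by a number, together with Slpi and Eppin. This gave 42 of the 51912 genes listed, of which 20 are whey acidic protein (WAP) genes, with Slpi and Eppin among them, 13 are Kazal genes and 9 are cystatins. The tissue was dorsolateral prostate from male mice aged 3 months, and all mice carried Ghrflox/flox, the growth hormone receptor gene with both copies flanked by loxP sites. The 3 Tamoxifen-control samples came from mice without Cre, while the 2 samples labelled Ghr deletion (below, the deletion-labelled pair) came from Ghrflox/flox;ROSA26Cre-ERT2+/0 mice, with a tamoxifen-activated Cre made from the broadly active ROSA26 locus and not from a prostate promoter. Both groups were given 5 daily doses of tamoxifen at 250 mg/kg and were sampled 1 month after the last dose, so the presence of Cre and the loss of the receptor cannot be told apart in this design.

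The WAP fold is a small secreted domain held together by disulfide bonds, and many of its members block serine proteases or kill bacteria at wet epithelial surfaces. Kazal proteins insert a loop into the active site of trypsin-like serine proteases, and several coat sperm in seminal fluid. Cystatins block papain-like cysteine proteases such as the cathepsins. In the male tract these inhibitors are secreted by the epididymis, the seminal vesicles and the prostate, where they accompany the proteases and the clotting proteins of semen.

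The libraries held between 19517831 and 41553558 expected counts, and 18590 genes cleared the low-count filter and entered the test. Abundance is given as CPM, the count scaled to the library size after adjustment by the trimmed mean of M values (TMM). Ghr had 10.1, 11.8 and 13.2 CPM in control replicates 1 to 3 and 21.5 and 10.2 CPM in the deletion-labelled libraries (edgeR quasi-likelihood adjusted p = 0.874), so the whole-gene counts did not check the labels. Control replicates 1 and 2 stood apart from control replicate 3. Of 8 seminal vesicle genes, 6 had both libraries labelled Ghr deletion below every control, beside 12.5% of all genes tested. Svs6, a seminal vesicle secretory gene, had 19949, 8915 and 70.2 CPM across control replicates 1 to 3, against 5.94 and 10.6 CPM in the deletion-labelled pair. Markers that define the labelled tissue were low in some libraries: the summed level of 10 prostate lobe genes was 89.9, 2342 and 33.7 CPM across control replicates 1 to 3, against 36.0 and 210 CPM in the deletion-labelled pair. Mme, named after its values were seen, made up most of the sum in control replicate 3 (28.2 CPM) and in Ghr deletion replicate 1 (33.4 CPM), so the rest of the list was lower there than its sum. Msmb, a prostate secretory gene, was at 0 in Ghr deletion replicate 1, where 3 counts correspond to 0.0681 CPM. The epithelial gene Epcam was present throughout, at 93.1 to 185 CPM.

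Most of the 42 genes were silent or nearly so. Between them, 19 passed the filter on low counts, namely 13 WAP genes, 5 Kazal genes and the cystatin Cst3. Of the 23 that were not tested, 10 had no count in any library: Wfdc5, Wfdc13 and Wfdc15a, the Kazal genes Spink6, Spink7 and Spink14, and the cystatins Cst9, Cst10, Cst12 and Cst13. A count of 0 allows up to 3 counts, which is 0.185, 0.154 and 0.0662 CPM in control replicates 1 to 3 and 0.0681 and 0.0757 CPM in the deletion-labelled pair, for counting error only. Another 10 untested members reached at most 9 counts in a library. The remaining 3 reached at least 10 counts. Wfdc16 had 0, 0 and 11 counts in control replicates 1 to 3 against 4 and 28 in the deletion-labelled pair, Spink4 had 0, 0, 1, 0 and 11 in that order, and Wfdc12 had 12, 1, 2, 4 and 3.

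Across the 19 tested members, the log2 fold change, deletion-labelled over control, was above 0 for 10 and below 0 for 9. The median was 0.22 against -0.0063 for all genes tested, of which 49.4% were above 0. No member passed an adjusted p of 0.05 in edgeR, and the background of all genes called was 0% higher and 0% lower. The adjusted p of the members lay between 0.874 and 0.943. At an unadjusted p under 0.05, 1 member was higher (Wfdc2) and 3 were lower (Spink1, Spinkl and Spink11), beside 1.16% of all tested genes higher and 3.1% lower. The libraries of both groups did not overlap for 1 member that was higher and 4 that were lower, beside 10.8% and 12.5% of all genes tested. DESeq2 called Spinkl, Spink1 and Spink11 lower and no member higher, where 0.108% of all genes were called higher and 0.328% lower. It gave no adjusted p for Spink10 and Wfdc10, so these were not open to a call. The limma-voom fit called no member. With control replicate 3 left out, edgeR called 0.082% of all genes higher and 0.18% lower but no member, and the smallest adjusted p of a member was 0.0579 for Spinkl. With control replicates 1 and 2 left out together, the members' median was -0.11. No gene was called in that fit, whose spread comes from the deletion-labelled pair alone.

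**Figure D1:**
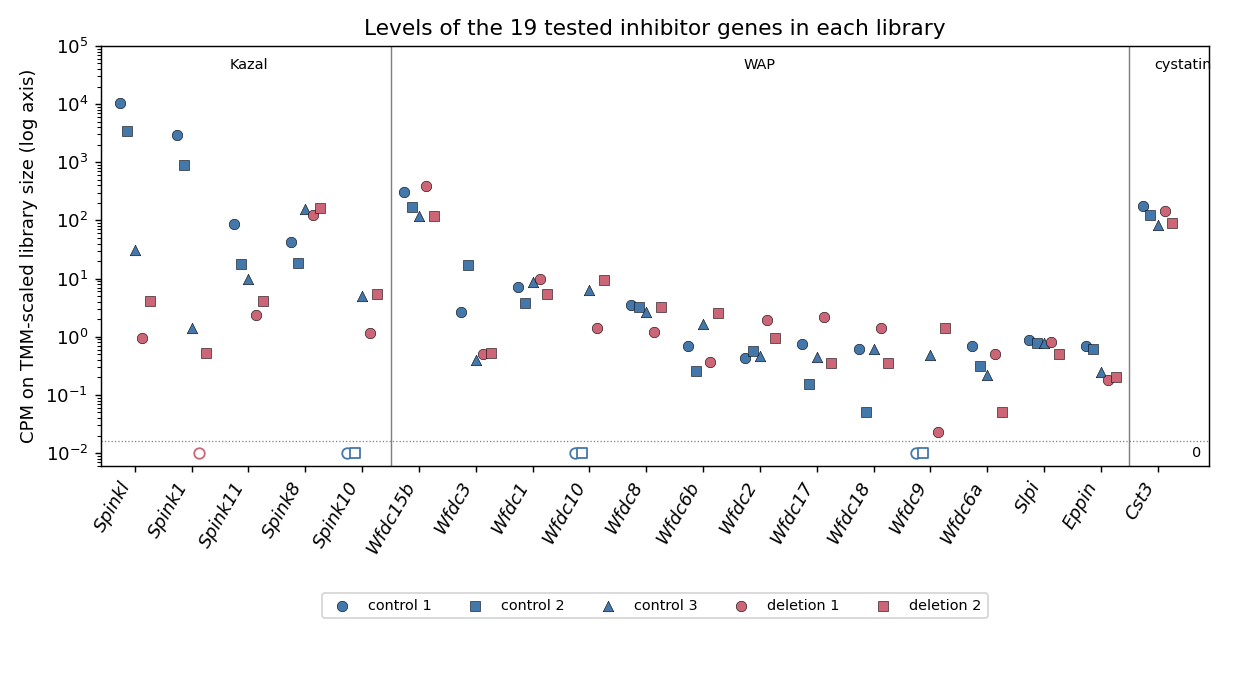
CPM on TMM-scaled library size (log axis) of the 19 tested inhibitor genes, with 1 symbol per library: blue for the 3 controls, red for the 2 libraries labelled Ghr deletion, and open symbols under the dotted line for a count of 0. Spinkl and Spink1 spread over more than 3 powers of 10, with control replicates 1 and 2 at the top, whereas Wfdc15b, Cst3 and Slpi each stayed within 1 power of 10.

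The Kazal genes had the widest spread between libraries. All members together summed to 14194, 4735 and 427 CPM in the controls and to 684 and 414 CPM in the deletion-labelled libraries. Spink1 and Spinkl alone made up 13567, 4376 and 32.7 CPM of the control sums and 0.953 and 4.72 CPM of the others. Without that pair the other 11 Kazal genes summed to 128, 36.1, 170, 125 and 174 CPM in the same order. The pair therefore accounted for most of the family's counts in control replicates 1 and 2 and for little of them elsewhere.

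Spinkl (ENSMUSG00000053729, GRCm38 chromosome 18, 44166356 to 44175074), a Kazal-like gene of the seminal vesicle whose protein binds sperm, had 10629.7, 3483 and 31.3 CPM across control replicates 1 to 3, against 0.953 and 4.19 CPM in the deletion-labelled pair. Both of the latter lay below every control, and control replicate 3 lay far nearer to them than to its own group. The group means were 4715 ± 5405 CPM (SD, n = 3) and 2.57 ± 2.29 CPM (SD, n = 2), so the control SD exceeded the control mean. In edgeR the log2 fold change was -10.8 (SE 2.90, 95% interval -18.0 to -3.70) at an adjusted p of 0.874, and DESeq2 gave an adjusted p of 6.77e-05. Against control replicate 3 alone the log2 difference was -3.61, given without a test since the spread in that fit comes from the deletion-labelled pair alone.

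Spink1 (ENSMUSG00000024503, chromosome 18, 43728082 to 43737557) encodes a secreted trypsin inhibitor that the pancreas and, in mice, the male accessory glands release. Its level was 2937, 892 and 1.43 CPM across control replicates 1 to 3, against 0 and 0.530 CPM in the deletion-labelled pair. The groups did not overlap, and as for Spinkl the third control was close to the deletion-labelled libraries. The means were 1277 ± 1505 CPM (SD, n = 3) and 0.265 ± 0.375 CPM (SD, n = 2). Its log2 fold change was -12.2 (SE 3.73), with adjusted p-values of 0.874 (edgeR) and 0.0133 (DESeq2), and it was -2.45 against control replicate 3 alone. Of 7 pancreatic acinar markers 5 had no count in any library, and the 7 summed to 0.822 to 1.72 CPM.

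Counts of Spinkl and Spink1 had similar ratios in the pair of libraries where both were abundant, and other ratios elsewhere. Spinkl had 3.62 counts per Spink1 count in control replicate 1 and 3.90 in control replicate 2. In control replicate 3 the ratio was 21.8 (1420 against 65 counts), in Ghr deletion replicate 2 it was 7.90 (166 against 21), and in Ghr deletion replicate 1 there were 42 counts of Spinkl and 0 of Spink1. The ratios are within a gene pair and are not corrected for length.

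Spink11 (ENSMUSG00000073573, chromosome 18, 44190045 to 44196177) is a Kazal gene beside Spinkl on the same strand. It had 85.1, 17.6 and 9.95 CPM across control replicates 1 to 3, against 2.36 and 4.16 CPM in the deletion-labelled pair. Every control was above both of these, and control replicate 1 was the highest. Its log2 fold change was -3.52 (SE 1.07), with an adjusted p of 0.874 by edgeR and 0.0158 by DESeq2. The value was -1.61 against control replicate 3 alone and -2.08 without control replicate 1. The transcripts of Spinkl and Spink11 match at 86.1% over 122 bases, and the deposited counts of both were whole numbers in all libraries.

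Several seminal vesicle genes were high and low in the same libraries as these 3 genes. All 8 genes of a seminal vesicle list were tested, 6 with a log2 fold change below 0 and 2 above, with a median of -7.48. Of these, edgeR and limma-voom called 0, and DESeq2 called 5 lower, where it called 0.328% of all genes lower. At an unadjusted p under 0.05 in edgeR, 5 were lower and 0 higher, beside 3.1% and 1.16% of all genes tested. Svs3b, a seminal vesicle secretory protein gene, had 9009, 4293 and 38.8 CPM across control replicates 1 to 3, against 0.499 and 2.60 CPM in the deletion-labelled pair. The list's summed level was 451761, 234412 and 234784 CPM across control replicates 1 to 3, against 104999 and 183272 CPM in the deletion-labelled pair, and no gene of it was at 0 throughout. Svs2, a semenogelin-like clotting protein gene, did not share that order, with 68572 and 47338 CPM in control replicates 1 and 2 and 140510, 67744 and 118601 CPM in the other 3 libraries. The part of seminal vesicle RNA in the values of Spinkl, Spink1 and Spink11 was not tested, and in bulk tissue fewer cells of a type and less RNA per cell cannot be told apart.

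Spink8 and Spink10 had the opposite order. Spink8 (ENSMUSG00000050074, chromosome 9, 109812280 to 109826633), a Kazal gene, had 42.5, 18.3 and 154 CPM across control replicates 1 to 3, against 122 and 164 CPM in the deletion-labelled pair. Control replicates 1 and 2 were the low libraries, and control replicate 3 lay between the pair labelled Ghr deletion, so the groups overlapped. Its log2 fold change was 0.99 (SE 0.83, adjusted p = 0.874 by edgeR), and it was -0.11 against control replicate 3 alone and 2.23 without that library. Spink10, named here after its values were seen, had 0, 0 and 4.98 CPM across control replicates 1 to 3, against 1.16 and 5.45 CPM in the deletion-labelled pair (log2 fold change 0.93, SE 1.90). Its value was -0.57 without Ghr deletion replicate 2, and without control replicate 3, where no control had a count, the fit gave 9.62, which is no bound. A stretch of its transcript matches those of at least 431 other genes at 85% identity or more over at least 100 bases, which leaves its counts uncertain. The search capped the matches returned, so the number can be higher.

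The summed level of epididymis and vas deferens genes had the same order of libraries as Spink8. Of 16 listed, 7 were tested, 6 with a log2 fold change above 0 and 1 below, and Lcn5, Lcn8, Lcn10, Spag11a and Spag11b, which are typical of the epididymis, had no count in any library. The list summed to 175.7, 87.2 and 2217 CPM in the controls and to 849 and 2387 CPM in the deletion-labelled libraries. Akr1b7, an aldose reductase abundant in the vas deferens, had 1.79, 6.32 and 946 CPM across control replicates 1 to 3, against 351 and 1309 CPM in the deletion-labelled pair. Crisp1, a sperm-coating protein gene, had 0.185, 2.72, 866, 217 and 831 CPM in the same order. Akr1b7 and Crisp1 were lower in control replicate 1 than in control replicate 2, unlike the sum and Spink8. Teddm1a had the log2 fold change below 0, at -1.20, with 0.494, 0.668 and 0.198 CPM against 0.227 and 0.151 CPM. The part of these cells in the levels of Spink8, Spink10, Wfdc9 and Wfdc10 was not tested.

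**Figure D2:**
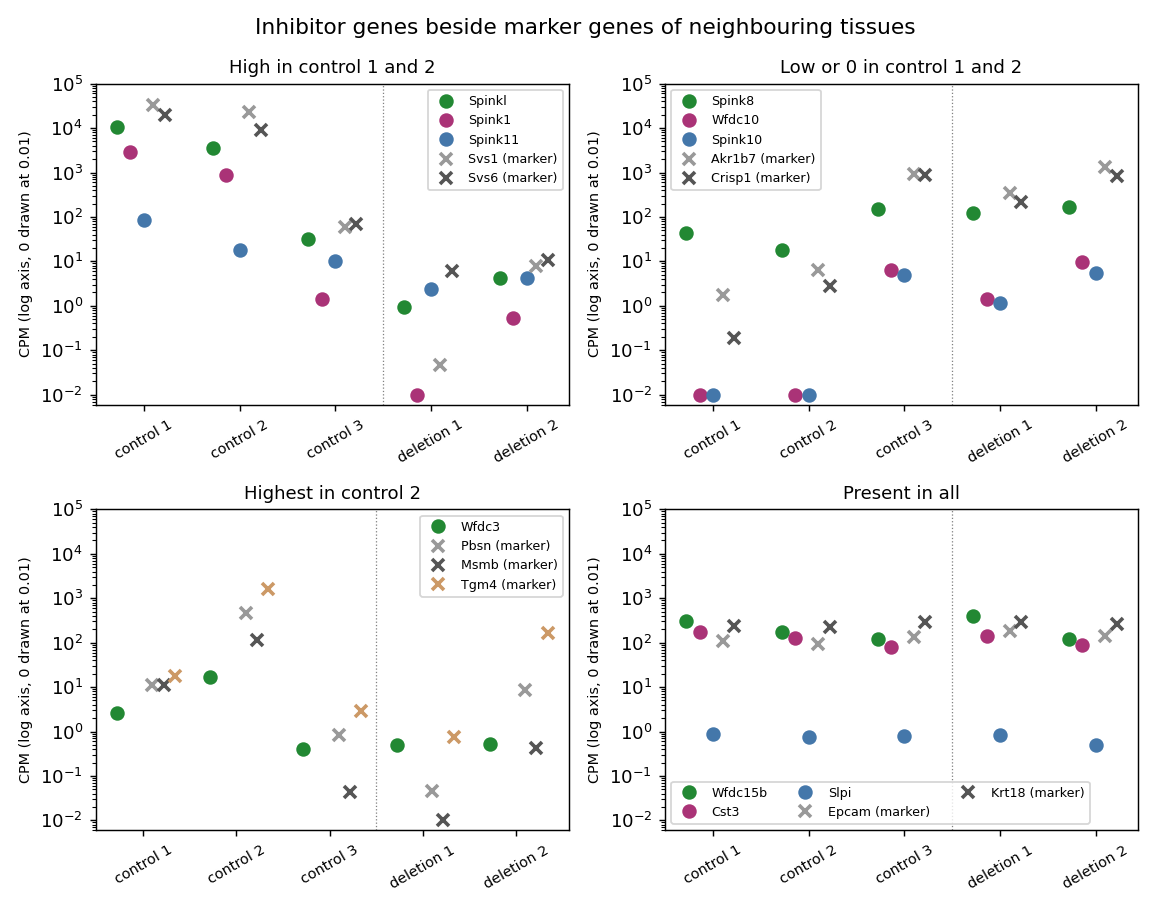
CPM (log axis, a count of 0 drawn at 0.01) of inhibitor genes (circles) beside marker genes (crosses) in each of the 5 libraries, with a dotted line between controls and libraries labelled Ghr deletion. Spinkl, Spink1 and Spink11 are highest in control replicates 1 and 2 like Svs1 and Svs6, Spink8, Wfdc10 and Spink10 are lowest there like Akr1b7 and Crisp1, Wfdc3 peaks in control replicate 2 like Pbsn, Msmb and Tgm4, and Wfdc15b, Cst3 and Slpi stay within 1 power of 10 like Epcam and Krt18.

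The WAP genes are mostly neighbours. Of the 20, 16 lie on chromosome 2 between 164176327 and 164745931, a span of 570 kb that also encloses 6 Svs genes. Wfdc15b lies at one edge of the Svs genes and Slpi at the other. The 6 Svs genes had log2 fold changes of 0.12 (Svs2), -11.5 (Svs3b), -4.77 (Svs4), -12.1 (Svs3a), -10.2 (Svs6) and -2.04 (Svs5) in their order along the chromosome, and the flanking Wfdc15b and Slpi had 0.37 and -0.29. Farther along, Wfdc9, Wfdc10 and Wfdc16 had counts only in control replicate 3 and the deletion-labelled libraries. The order of the libraries thus changed from gene to gene inside the cluster.

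**Figure D3:**
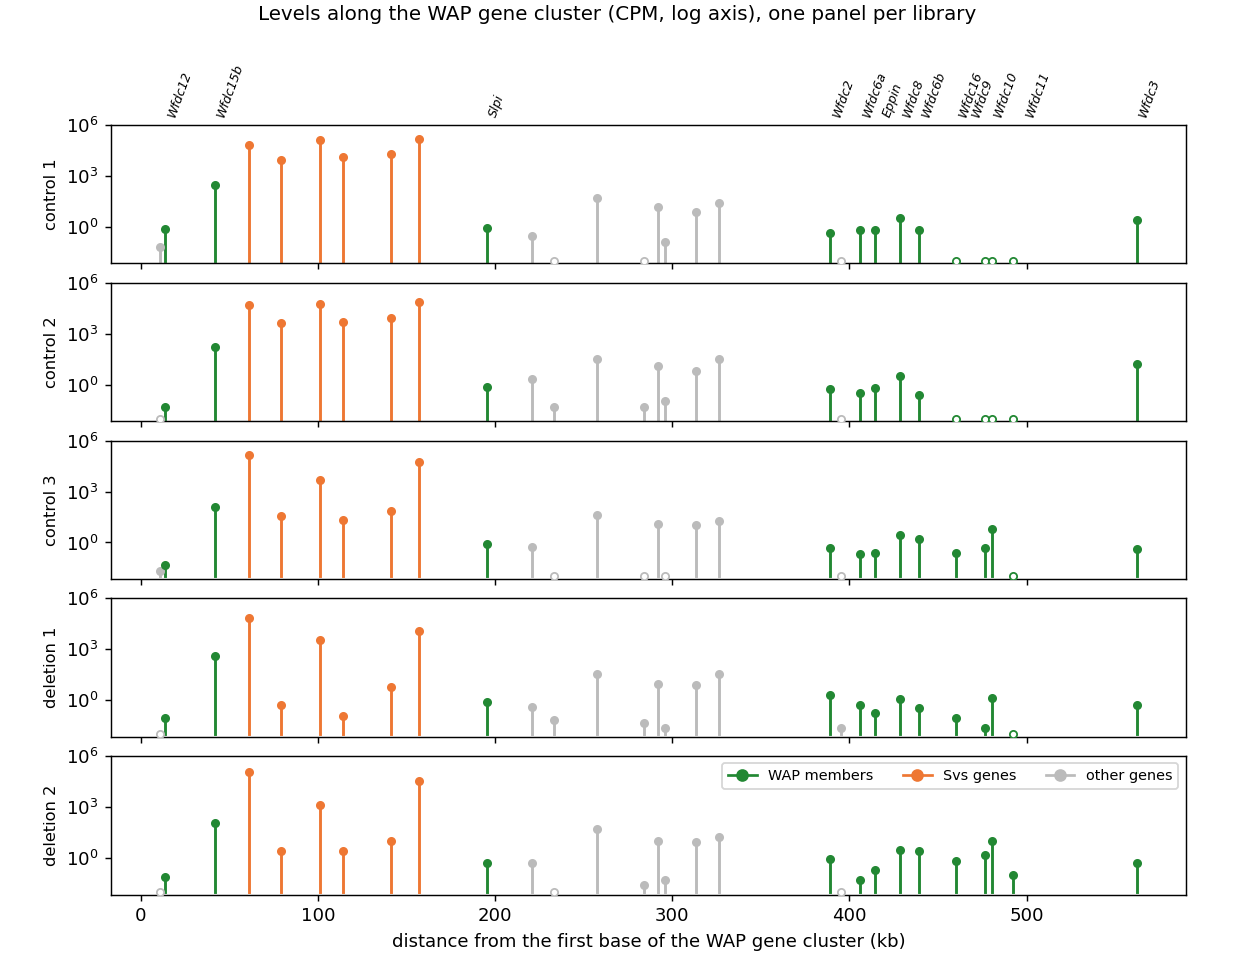
CPM (log axis) of each gene with a count against the distance of its middle from the first base of the WAP cluster (kb), in 1 panel per library, with WAP members in green, Svs genes in orange, other genes in grey and open circles for a count of 0. Wfdc15b and Slpi stay at similar heights in all panels while Svs3a, Svs3b and Svs6 between them are lower by powers of 10 in control replicate 3 and the deletion-labelled libraries, and Wfdc9, Wfdc10 and Wfdc16 appear only in those 3 panels.

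Wfdc15b (ENSMUSG00000018211, chromosome 2, 164214454 to 164221660) was the most abundant WAP gene per length (TPM) in every library. It encodes a small secreted WAP protein with antibacterial activity. Its level was 303, 171 and 120 CPM across control replicates 1 to 3, against 394 and 119 CPM in the deletion-labelled pair, which were the highest and the lowest of the 5. The means were 198 ± 94.4 CPM (SD, n = 3) and 256 ± 194 CPM (SD, n = 2), and the log2 fold change was 0.37 (SE 0.61, 95% interval -1.12 to 1.87, adjusted p = 0.910 by edgeR). Leaving out Ghr deletion replicate 1 gave -0.74, and leaving out replicate 2 of that group gave 0.99. On the TPM scale, which divides by transcript length and scales each library to the same total, Wfdc15b had 357, 85.5 and 209 TPM in the controls and 1339 and 292 TPM in the deletion-labelled libraries. On log2(TPM + 1) the difference was 1.75, where the median of all genes was 0.87.

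Wfdc9 and Wfdc10, both named after their values were seen, had no count in control replicates 1 and 2. Wfdc10 (ENSMUSG00000070529, chromosome 2, 164656046 to 164657368) had 0, 0 and 6.42 CPM across control replicates 1 to 3, against 1.43 and 9.51 CPM in the deletion-labelled pair. Wfdc9 (ENSMUSG00000074594, chromosome 2, 164649631 to 164656583) had 0, 0 and 0.485 CPM and 0.0227 and 1.44 CPM. The libraries ranked alike for both genes, with Ghr deletion replicate 2 highest and control replicate 3 next. Their log2 fold changes were 1.296 (SE 1.95) and 1.87 (SE 1.77), and neither the adjusted p of 0.904 for Wfdc10 nor that of 0.874 for Wfdc9 by edgeR passed. The direction rested on Ghr deletion replicate 2, without which the values were -0.62 for Wfdc10 and -2.84 for Wfdc9. Without control replicate 3 both remaining controls had no count, so that the fitted 10.3 of Wfdc10 is no bound, and Wfdc9 did not pass the filter. In RefSeq the starts of these genes lie 1080 bases apart on opposite strands and point away from each other, while the GENCODE model of Wfdc9 reaches past the start of Wfdc10.

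The 250 bases before the RefSeq start are shown for this divergent pair, whose libraries ranked alike, and for Wfdc15b, which was abundant in all of them. The windows are Wfdc10, chr2:164655796-164656045 on the plus strand, Wfdc9, chr2:164654967-164655216 on the minus strand, and Wfdc15b, chr2:164221664-164221913 on the minus strand, in build GRCm38.p6, and none overlaps an annotated exon. Each is written 5′ to 3′ along the gene, with capitals for the letters AGAACA or TGTTCT, the half-site of the androgen response element read on either strand.
Wfdc10: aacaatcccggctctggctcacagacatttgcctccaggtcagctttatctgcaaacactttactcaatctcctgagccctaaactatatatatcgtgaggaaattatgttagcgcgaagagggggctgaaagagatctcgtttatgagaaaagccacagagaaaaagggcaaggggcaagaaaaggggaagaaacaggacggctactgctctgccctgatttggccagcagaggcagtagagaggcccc
Wfdc9: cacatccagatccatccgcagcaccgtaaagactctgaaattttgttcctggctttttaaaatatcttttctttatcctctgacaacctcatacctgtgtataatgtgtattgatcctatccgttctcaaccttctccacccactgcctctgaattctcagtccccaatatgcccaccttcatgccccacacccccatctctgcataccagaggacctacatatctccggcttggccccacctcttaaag
Wfdc15b: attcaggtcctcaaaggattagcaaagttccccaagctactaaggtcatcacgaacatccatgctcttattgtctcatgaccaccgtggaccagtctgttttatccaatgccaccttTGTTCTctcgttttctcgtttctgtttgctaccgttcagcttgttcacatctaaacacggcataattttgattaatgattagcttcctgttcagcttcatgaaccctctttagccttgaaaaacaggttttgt
The half-site letters occur once before Wfdc15b and not in the windows of Wfdc9 and Wfdc10. The RefSeq table held 24 of the 42 members, with 29 windows, and 3 of these members (Wfdc15b, Wfdc11 and Cst3) had the half-site in a window. Spinkl, Spink1 and Spink11 were among the 18 members not in it and were not searched. Of all 32851 windows of the same length, 16.1% held the half-site, which is a share of windows and not of genes.

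Wfdc2 (ENSMUSG00000017723, chromosome 2, 164562413 to 164568510), a secreted WAP gene of reproductive and airway epithelium, was the only tested member with both libraries labelled Ghr deletion above every control. It had 0.432, 0.565 and 0.463 CPM across control replicates 1 to 3, against 1.95 and 0.934 CPM in the deletion-labelled pair. The 3 controls lay close together, and the pair labelled Ghr deletion differed from each other by more than the whole control range. Its log2 fold change was 1.56 (SE 0.50, 95% interval 0.32 to 2.80), with adjusted p-values of 0.874 (edgeR) and 0.625 (DESeq2). It was 1.64 against control replicate 3 alone, and 0.93 without Ghr deletion replicate 1. Krt4, a keratin gene of the proximal luminal list, also had groups that did not overlap in the same direction, with 0.494, 0.308 and 0.375 CPM across control replicates 1 to 3, against 2.65 and 1.11 CPM in the deletion-labelled pair. Other genes of that list ran the opposite way: Ly6d, a surface protein gene, had 8.58, 4.21 and 2.60 CPM against 1.45 and 1.77 CPM, and Krt7, another keratin gene, had 43.9, 37.0 and 12.6 CPM against 8.71 and 11.8 CPM. The list had 6 of 7 genes tested, 3 above 0 and 3 below. In each direction 2 did not overlap, beside 10.8% of all genes tested higher and 12.5% lower. At an unadjusted p under 0.05 in edgeR, 2 were higher and 3 lower, beside 1.16% and 3.1% of all genes tested. The list's sums of 372, 258 and 2401 CPM across control replicates 1 to 3, against 6229 and 1902 CPM in the deletion-labelled pair, were mostly Clu, the clusterin gene (267, 183.1 and 2368 against 6193 and 1874 CPM). The part of these cells in Wfdc2 was not tested.

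Eppin (ENSMUSG00000017733, chromosome 2, 164588343 to 164593594) encodes a sperm-coating inhibitor with a WAP and a Kunitz domain that binds semenogelin. It had 0.679, 0.616 and 0.243 CPM across control replicates 1 to 3 (11, 12 and 11 counts). The deletion-labelled pair had 0.182 and 0.202 CPM (8 and 8 counts). In CPM every control was above both of that pair, and control replicate 3 was the nearest to them, on few counts in every library. The difference on the log2 scale was -1.36 (SE 0.68, adjusted p = 0.874 by edgeR). On log2(TPM + 1) it was 0.037, where the median of all genes was 0.87.

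Wfdc3, which encodes a protein with several WAP domains and was named after its values were seen, had 2.65, 17.2 and 0.397 CPM across control replicates 1 to 3, against 0.499 and 0.530 CPM in the deletion-labelled pair. It peaked in control replicate 2, and control replicate 3 was the lowest of the 5. The log2 fold change was -3.70 (SE 1.57, adjusted p = 0.874 by edgeR), and it was 0.37 against control replicate 3 alone and -1.50 without control replicate 2. Prostate lobe genes also peaked in control replicate 2: Tgm4, the transglutaminase that crosslinks seminal clot proteins, had 17.9, 1604 and 2.93 CPM across control replicates 1 to 3, against 0.749 and 162 CPM in the deletion-labelled pair. Wfdc3 did not share the higher level of Tgm4 in Ghr deletion replicate 2. Of the prostate lobe list 9 of 10 genes were tested, 1 above 0 and 8 below. Some untested testis genes, named after their values were seen, were also highest in control replicate 2. Prm2 had 0, 1.39 and 0 CPM across control replicates 1 to 3, against 0.0227 and 0.0252 CPM in the deletion-labelled pair. Acrv1, the tested gene of the testis list, was highest in control replicate 3 (5.31 CPM). The part of prostate lobe or testis cells in the level of Wfdc3 was not tested.

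Of the other WAP genes, Slpi, the secreted inhibitor of neutrophil elastase, had the narrowest range on the CPM scale, at 0.864, 0.771 and 0.794 CPM across control replicates 1 to 3, against 0.817 and 0.505 CPM in the deletion-labelled pair. Wfdc1, a stromal secreted protein gene outside the cluster on chromosome 8, had 7.28, 3.80 and 8.71 CPM against 10.01 and 5.35 CPM, and Wfdc8 had 3.46, 3.29 and 2.69 CPM against 1.23 and 3.18 CPM. Both groups overlapped for Slpi, Wfdc1 and Wfdc8. Wfdc17 and Wfdc18, neighbours on chromosome 11, were highest in Ghr deletion replicate 1, at 2.16 and 1.43 CPM. Of the macrophage genes Lyz2, Csf1r and Adgre1 had the same top library, while Cd68, a lysosomal protein gene of macrophages, was highest in control replicate 1 (2.72 against 2.38 CPM in Ghr deletion replicate 1). Lyz2, a lysozyme of myeloid cells, had 36.2, 14.4 and 22.1 CPM across control replicates 1 to 3, against 50.7 and 21.7 CPM in the deletion-labelled pair. That list of 10 had 5 genes tested, 4 above 0, with sums of 37.5 to 78.3 CPM in the controls and of 101 and 47.6 CPM in the deletion-labelled pair. Ly6g and Retnlg, which mark neutrophils, were at 0 in all libraries, and the part of these cells in Wfdc17 and Wfdc18 was not tested.

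Wfdc6a and Wfdc6b cannot be separated with certainty. Their transcripts match at 92.1% over 811 bases, and both had fractional counts in all 5 libraries. Wfdc6b also shares 105 exon bases with Wfdc8 on the opposite strand, and the strand setting of the counting is not given in the sources used here. They had 0.0505 to 0.679 CPM and 0.257 to 2.57 CPM across the libraries.

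Taken by family, the WAP genes had 8 of 13 log2 fold changes above 0 with a median of 0.37. With scaling by library size only, 11 of 13 were above 0, and on log2(TPM + 1) 12 of 13, but relative to the median of all genes the counts were 8 and 6 of 13. The Kazal genes had 2 of 5 above 0 with a median of -3.52, and 2 of 5 under each of these scalings too. The spread of the Kazal values (-12.2 to 0.99) was wider than that of the WAP values (-3.70 to 1.87).

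**Figure D4:**
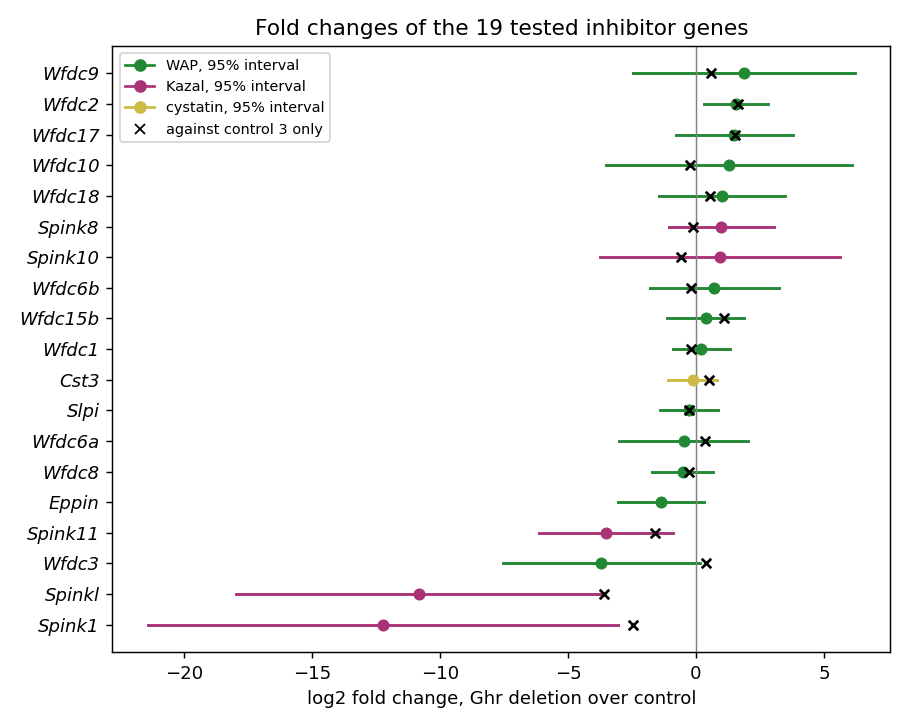
Log2 fold change (libraries labelled Ghr deletion over controls) of the 19 tested inhibitor genes by edgeR, with 95% intervals, coloured by family, and crosses for the value against control replicate 3 alone, which Eppin lacks because it did not pass the filter there. The crosses of Spink1, Spinkl and Spink11 lie much nearer to 0 than the points, those of Spink8, Wfdc10, Spink10, Wfdc1, Wfdc6b, Wfdc3, Wfdc6a and Cst3 change sign, and that of Wfdc2 lies at 1.64 against 1.56 in the full comparison.

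Cystatin C was the one cystatin with substantial counts. Cst3 (ENSMUSG00000027447, chromosome 2, 148871722 to 148875692), a secreted inhibitor of cathepsins made by most cells, had 177.02, 124 and 81.8 CPM across control replicates 1 to 3, against 142 and 90.1 CPM in the deletion-labelled pair. The groups overlapped fully, with both of the latter inside the control range. The means were 128 ± 47.7 CPM (SD, n = 3) and 116 ± 37.0 CPM (SD, n = 2). The log2 fold change was -0.14 (SE 0.39, 95% interval -1.09 to 0.82, adjusted p = 0.943 by edgeR), and with scaling by library size only it was 0.53, where the median of all genes was 0.58. Leaving out the first control gave 0.17, and leaving out the second deletion-labelled library gave 0.16. The other 8 cystatins had at most 9 counts in a library, reached by Cst7.

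Compared per length, the order of the members differed between libraries. In control replicate 1 Spinkl had 11266 TPM, Spink1 5617 TPM and Wfdc15b 357 TPM. In control replicate 2 the same genes led, at 1576, 699 and 85.5 TPM. In control replicate 3 Wfdc15b (209 TPM) and Spink8 (196 TPM) led, followed by Cst3 (74.8 TPM). In the deletion-labelled libraries Wfdc15b had 1339 and 292 TPM, Spink8 290 and 293 TPM, and Cst3 252 and 117 TPM. Wfdc15b was thus among the 3 leading inhibitors of all libraries, beside Spinkl and Spink1 in control replicates 1 and 2 and beside Spink8 and Cst3 in the other 3.

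Genes that these inhibitors act on or act beside were examined from lists. Of 48 listed serine proteases (kallikreins, trypsin-like, elastase-like and membrane types) 14 were tested and 0 passed in edgeR, DESeq2 or limma-voom. In edgeR 1 was higher and 1 lower at an unadjusted p under 0.05, beside 1.16% and 3.1% of all genes tested. Of the log2 fold changes 10 were above 0 and 4 below, with a median of 0.27. The smallest p was that of Klk1b27, a glandular kallikrein, with 0, 0 and 0.0221 CPM across control replicates 1 to 3, against 0.998 and 0.429 CPM in the deletion-labelled pair. Klk1b24, of the same family of near-identical copies, had 0.617, 0.514 and 1.08 CPM against 4.08 and 0.934 CPM, and both are uncertain for that reason. Plg, the gene of plasminogen, had 0.556, 0.257 and 0.331 CPM against 0.0454 and 0.0252 CPM. Both of the latter lay under 3 counts, which is 0.0681 and 0.0757 CPM there. So did the controls of Klk1b27, where 3 counts are 0.0662 CPM in control replicate 3. Relative to the median of all genes, the number above it was 9 of 14 with scaling by library size only and 8 of 14 on log2(TPM + 1).

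All 11 cysteine proteases that cystatins can meet were tested, and 0 passed in edgeR, DESeq2 or limma-voom. In edgeR 2 were higher and 0 lower at an unadjusted p under 0.05, beside 1.16% and 3.1% of all genes tested. Of the log2 fold changes 8 were above 0 and 3 below, with a median of 0.30. Above the median of all genes there were 8 of 11 with scaling by library size only and 10 of 11 on log2(TPM + 1). Ctsh, cathepsin H, had 21.5, 10.7 and 23.8 CPM across control replicates 1 to 3, against 52.1 and 31.5 CPM in the deletion-labelled pair. Ctsc, cathepsin C, had 18.2, 11.3 and 17.2 CPM against 36.1 and 20.9 CPM, and Lgmn, legumain, had 17.3, 11.3 and 16.3 CPM against 23.4 and 21.1 CPM. Both libraries labelled Ghr deletion were above every control for each of these 3, at an adjusted p of 0.874 by edgeR, and for Ctsf, so for 4 of the 11 beside 10.8% of all genes tested. The macrophage list above had a median of 0.32 and its sum was highest in Ghr deletion replicate 1. The summed cysteine proteases reached 926 CPM in control replicate 1 and 916 CPM in Ghr deletion replicate 1. The part of macrophages in the protease levels was not tested.

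Other protease inhibitors, such as serpins, Kunitz inhibitors and the intracellular cystatins, gave 23 tested of 41 listed, with 0 called by edgeR and 0 by limma-voom. DESeq2 called 1 lower, where it called 0.328% of all genes lower. In edgeR 1 was higher and 4 lower at an unadjusted p under 0.05, beside 1.16% and 3.1% of all genes tested. Of the log2 fold changes 10 were above 0 and 13 below, with a median of -0.091. With scaling by library size only 19 of 23 were above 0, and 10 of 23 were above the median of all genes, against 14 of 23 on log2(TPM + 1). Serpina3n, a serpin of acute inflammation, had 2.41, 4.57 and 1.41 CPM across control replicates 1 to 3, against 10.6 and 9.03 CPM in the deletion-labelled pair. Serpina1a, an antitrypsin gene, had 0.494, 1.44 and 1.06 CPM against 0.204 and 0.0505 CPM, the last under 3 counts. Pzp, a broad protease trap of plasma, had 0.988, 2.52 and 1.21 CPM against 0.204 and 0.0757 CPM, with an adjusted p of 0.874 by edgeR and 0.0177 by DESeq2.

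Androgen receptor and 9 of its prostate targets form a list of genes that respond to the hormone which drives seminal secretion. The list gave 0 calls in edgeR, DESeq2 and limma-voom, though DESeq2 gave Pbsn no adjusted p. At an unadjusted p under 0.05 in edgeR, 0 were higher and 1 lower, beside 1.16% and 3.1% of all genes tested. Of the log2 fold changes 5 were above 0 and 5 below, with a median of -0.21. Homer2, a scaffold protein gene, had the smallest p, with 25.7, 19.2 and 30.2 CPM across control replicates 1 to 3, against 13.6 and 14.2 CPM in the deletion-labelled pair. Relative to the median of all genes 4 of the 10 were above it with scaling by library size only and 6 on log2(TPM + 1).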

How the data were processed

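RNA of flash-frozen dorsolateral prostate was sequenced after TruSeq Stranded Total RNA preparation, per the labels' protocols. STAR 2.5.3a, RSEM 1.3.0, bcl2fastq 2.20.422 and the build GRCm38 are named in the submitters' processing notes. Which annotation release and strand setting were used is not given in the sources used here. Per the file headers, the authors deposited RSEM gene tables with expected counts, in which a read that matches several genes is shared among them, TPM (scaled by length and library) and effective lengths.

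Expected counts were rounded, filtered with filterByExpr, scaled by TMM and fitted across 18590 genes in edgeR 4.0.16 (R 4.3.3). Group was the single model term, and quasi-likelihood p-values were adjusted by Benjamini-Hochberg over all genes, with a threshold of 0.05. CPM uses the TMM-scaled library size. DESeq2 1.42.0 and limma 3.58.1 (voom, and trend on log2(TPM + 1) and log2(TPM + 0.1)) were alternatives. The fits were tested on simulated data. An exact permutation test of 3 against 2 samples has too few arrangements to pass 0.05, so p-values come from the model. They measure the spread between the samples, which the labels call biological replicates.

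The members and lists were chosen with earlier results of these data known, so no list gives independent support. Members were named at a mean of at least 10 CPM, at an unadjusted p under 0.05, or where the groups do not overlap, and untested ones at 10 or more counts in a library. Other tested members were named after their values were seen. Of each list, genes with the smallest p, and for marker lists also the most abundant, were eligible to be named. Testis, epidermis and pancreatic lists had 1 tested gene each, with 0 called by edgeR and 0 at an unadjusted p under 0.05. Of 8 luminal and basal epithelial genes all were tested, 4 above 0 and 4 below, with 0 called by edgeR and 0 at an unadjusted p under 0.05. Symbols were matched for 99.5% of identifiers. Coordinates are from GENCODE M21 and promoters from RefSeq on GRCm38.p6. Similar transcripts were aligned with BLAST 2.17.0. Depth limits precision for genes with few counts.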

Additional observations from a re-analysis of the deposited data

How the results depend on the processing

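Under 18 alternatives the log2 fold changes of Spink1, Spinkl, Spink11 and Wfdc2 kept their direction wherever they were tested. DESeq2 called 20 genes higher and 61 lower, 3 of the latter members. Without the filter on low counts 2 genes were called higher, 2 members did not overlap in the higher direction, and the members' median was -0.039. Scaling by library size only shifted the median of all genes to 0.58, with 2 members not overlapping and higher, a members' median of 0.76, and 0.53 for Cst3. On log2(TPM + 1), where the median of all genes was 0.87, 2234 genes were called higher and 60 lower. Of the members 7 were higher and 2 lower, 3 higher and 2 lower did not overlap, and the median was 0.86, with 1.38 for Cst3 and 0.037 for Eppin. On log2(TPM + 0.1), with a median of all genes of 1.33, the counts were 686 and 47 genes, 6 and 2 members called, 3 and 2 not overlapping, a median of 1.58, and 1.39 for Cst3 and 0.16 for Eppin. With control replicates 1 and 2 left out together, 3 members did not overlap and were higher, the median was -0.11, Cst3 was 0.51 and Spink8 -0.11. The share of all genes without overlap was taken in the main comparison only. The counts of members without overlap under these alternatives therefore have no background and are not read as a result.

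Leaving out each library in turn gave 0 to 15 genes higher and 0 to 33 lower, both maxima without control replicate 3. Members not overlapping numbered 1 to 7 higher and 3 to 7 lower, with fewer samples compared and no share of all genes taken beside them. The members' median ran from -0.57 to 0.37. Cst3 ran from -0.51 to 0.17 and Wfdc15b from -0.74 to 0.99. The replicate number as a block gave 552 genes higher and 574 lower, 4 members higher and 4 lower, a median of -0.073 and -0.073 for Wfdc15b. The labels give these numbers no shared source, and only 2 pairs exist, so the block is not taken as a pairing. Correlations of deviations from the group means were 0.30 and 0.26 for same-numbered libraries. For control replicate 2 with Ghr deletion replicate 1 the value was -0.26, and for control replicate 1 with Ghr deletion replicate 2 it was -0.30. The deviations of 2 libraries from their mean always mirror each other, so these correlations cannot decide on a pairing. The cause of these changes was not tested. Depth limits the members with few counts.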
